A study of Mus musculus with 6 samples.

Results

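Cap1 and its partners in actin turnover were examined in livers labelled Ugcg-deficient (KO, 3 arrays, numbered 427, 429 and 431) and livers labelled wildtype (WT, 3 arrays, numbered 426, 428 and 430). The 10 genes listed were Cap1, Cap2, Cfl1, Cfl2, Dstn, Pfn1, Pfn2, Wdr1, Actb and Actg1. Rows of the expression table are named by Entrez gene number, and 8 of the 10 genes had a row with their symbol among 16331 gene probe sets, of which 15644 carried a symbol. The expression of Cfl1 and Actg1 is not analysed here. The group was chosen by the p-value of Cap1, which stood at rank 5 among all gene probe sets in the comparison of KO with WT livers, and its partners were added by function. The differences of the members in that comparison are therefore given as a description, without a test.

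Ugcg encodes the enzyme that joins glucose to ceramide, the entry step to glucosylceramide and the glycosphingolipids made from it. The labels give the genotype and the tissue; the strain, age, sex and treatment of the mice, and the cells in which Ugcg was deleted, are not stated there. They also do not say whether each array came from a separate animal, so errors and p-values measure the spread between these arrays, which may be technical. All values are deposited log2 expression values, and all differences are KO minus WT on the log2 scale. A difference in bulk liver RNA cannot tell fewer cells of a type from less RNA per cell.

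Cells rebuild their actin filaments continuously. Monomers charged with ATP join the filament at its barbed end, mostly delivered by profilin, and ADP-actin leaves after cofilin or destrin has severed or loosened the ageing filament, helped by the cofilin partner protein that Wdr1 encodes. Cyclase-associated protein, the product of Cap1 and Cap2, strips cofilin from ADP-actin monomers, promotes the exchange of ADP for ATP and hands the monomer back for assembly. In hepatocytes actin lies mainly under the plasma membrane and around the bile canaliculi.

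All arrays carried liver RNA by their hepatocyte markers: albumin (Alb) lay between 14.60 and 14.69, the apolipoprotein gene Apoa1 between 14.33 and 14.43, and the hepatocyte transcription factor gene Hnf4a between 10.09 and 10.50. Array medians ran from 6.79 to 6.81. The probe set of Ugcg read 7.12, 6.70 and 6.68 in KO livers, against 6.81, 6.85 and 6.87 in WT livers, so the groups overlapped. Where its probes lie relative to the deleted part is not known here, so it does not check the genotypes, and every direction rests on the labels. WT 430 stood apart by pancreatic transcripts, with the elastase gene Cela2a 3.74 above the mean of the other arrays. KO 427 stood apart by the skeletal muscle actin gene Acta1 (2.03 above the others). KO 431 stood apart by the platelet genes Ppbp (1.83) and Pf4 (1.13), the adipocyte gene Fabp4 (1.27) and the neutrophil gene S100a8 (1.28). KO 429 stood apart by the smooth muscle actin gene Acta2 (1.49) and the bile duct keratin gene Krt19 (1.21). Of the other bile duct markers, Epcam was also highest in KO 429 (6.86), while Krt7 (6.52) and Sox9 (6.70) lay within the range of the other arrays.

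Cap1 was the member that differed most between the genotypes. It read 8.95, 8.66 and 8.80 in KO livers, against 8.08, 8.11 and 8.06 in WT livers. Every KO array lay above every WT array, with a gap of 0.551 between the lowest KO and the highest WT value, and the spread among KO arrays (0.291 from lowest to highest) was wider than that among WT arrays (0.041). The mean was 8.80 ± 0.15 in KO livers and 8.09 ± 0.02 in WT livers (SD, n = 3 each), a difference of 0.72 (SE 0.0852) or 1.64-fold. The value that chose Cap1 was its limma p-value, which gave 0.0531 after Benjamini-Hochberg adjustment over all 16331 gene probe sets; Rnf145 just ahead of it had 0.0483 and Pik3r4 just after it 0.0736. The difference of Cap1 ran from 0.645 without KO 427 to 0.79 without KO 429 when 1 array was left out, and it was 0.634 without both KO 427 and WT 430. The range of Cap1 over the 6 arrays was larger than that of 98.3% of named probe sets. That range includes the group difference by which Cap1 was chosen, so nothing is read from this rank.

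**Figure D1:**
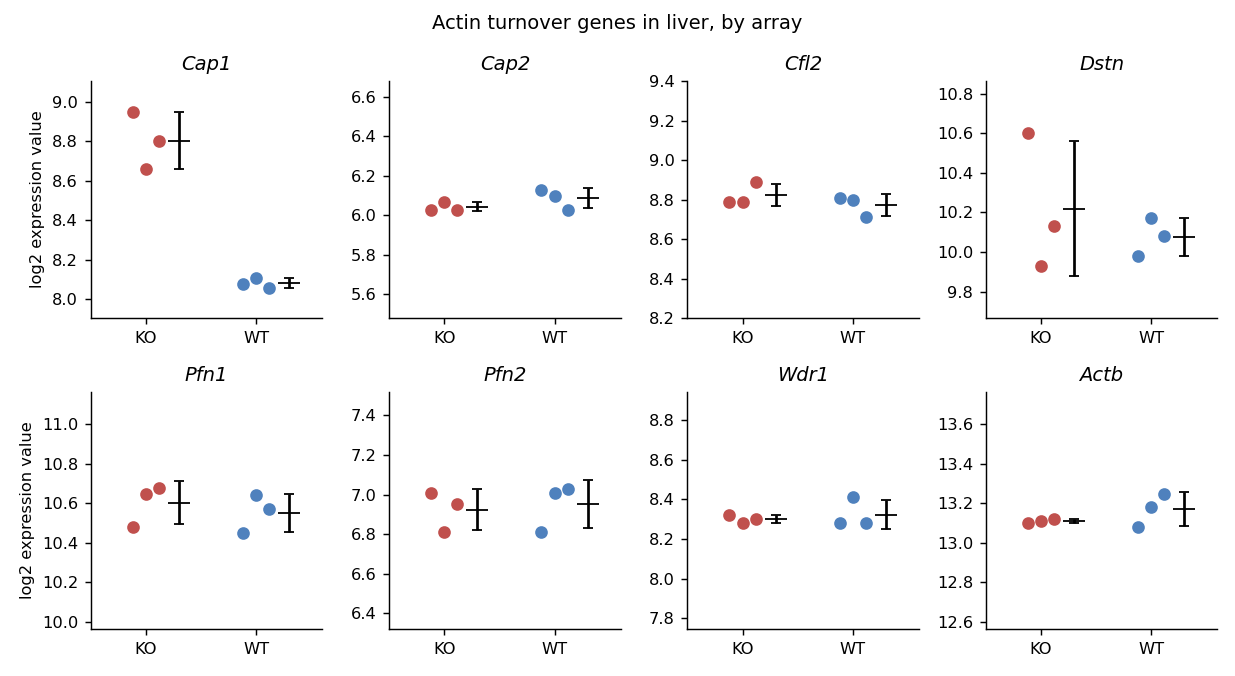
Log2 expression value (vertical axis, the same span of 1.2 in every panel) of the 8 measured actin turnover genes on each KO and WT array; points are arrays and the bar beside them is the mean with its SD. Cap1 separates the groups, with KO arrays at 8.66 to 8.95 and WT arrays at 8.06 to 8.11, and the groups overlap in the other panels.

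The sequence before the start of Cap1 is shown because Cap1 was the member with separate groups, beside that of its paralogue Cap2 and that of Actg1, which held a binding motif of the actin gene regulator SRF. Each run is the 250 bases before the RefSeq start in GRCm38.p6, written 5′ to 3′ on the gene's strand, with motif matches on either strand in capitals; runs longer than a motif are overlapping matches of the GC box.
Cap1 (chr4:122886077-122886326, minus strand): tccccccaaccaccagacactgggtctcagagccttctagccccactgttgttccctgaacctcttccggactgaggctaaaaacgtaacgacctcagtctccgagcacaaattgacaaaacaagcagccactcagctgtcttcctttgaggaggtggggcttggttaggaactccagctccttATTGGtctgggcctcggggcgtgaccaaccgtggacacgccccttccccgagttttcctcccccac
Cap2 (chr13:46501653-46501902, plus strand): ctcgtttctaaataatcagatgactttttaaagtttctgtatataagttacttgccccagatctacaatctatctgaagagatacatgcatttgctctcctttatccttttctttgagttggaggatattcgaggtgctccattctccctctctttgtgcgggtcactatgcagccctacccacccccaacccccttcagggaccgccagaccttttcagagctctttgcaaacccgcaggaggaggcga
Actg1 (chr11:120348496-120348745, minus strand): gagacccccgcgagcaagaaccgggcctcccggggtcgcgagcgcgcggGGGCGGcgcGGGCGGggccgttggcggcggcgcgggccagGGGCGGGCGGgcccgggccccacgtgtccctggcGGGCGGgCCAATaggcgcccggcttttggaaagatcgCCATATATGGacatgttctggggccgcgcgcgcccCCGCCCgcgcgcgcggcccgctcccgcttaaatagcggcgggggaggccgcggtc
RefSeq promoters were found for 9 of the 10 genes, Actb being the exception. The motifs searched, on both strands, were the SRF-binding CArG box, the cAMP response element TGACGTCA, CCAAT, the GC box GGGCGG and TATAAA. Cap1 held 1 CCAAT match, on the opposite strand, and none of the other motifs, and Cap2 held none of them. Actg1 held 1 CArG box, 1 CCAAT match and 6 GC boxes. Of 32851 promoters of this length, 1.47% held a CArG box, 1.55% the cAMP response element, 33.8% CCAAT, 32.7% a GC box and 12.4% TATAAA. Among the other members Cfl2 had 6 GC boxes, Wdr1 4, Dstn 3, Pfn1 2 and Pfn2 1, while Cfl1 had none, and Cfl1 and Cfl2 had 1 CCAAT match each. The 250 bases of Cap1 held 57.2% G and C, those of Cap2 46.4% and those of Actg1 79.2%, with a median of 52.4% over all promoters.

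Cap2, the second mouse gene for cyclase-associated protein and known mainly from muscle and brain, did not show the difference of Cap1. It read 6.03, 6.07 and 6.03 in KO livers, against 6.13, 6.10 and 6.03 in WT livers. All values lay within 0.10 of each other and the groups overlapped. The mean was 6.04 ± 0.02 in KO livers and 6.09 ± 0.05 in WT livers (SD, n = 3 each), a difference of -0.04 (SE 0.0668). Cap2 was the only measured member at or below the 40th percentile of mean level, and no detection calls were used that would say whether it was above background.

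Of the severing proteins, Cfl2, the muscle form of cofilin, read 8.79, 8.79 and 8.89 in KO livers, against 8.81, 8.80 and 8.71 in WT livers. The groups overlapped, and the difference was 0.06 (SE 0.0706), with a mean of 8.83 ± 0.06 in KO livers and 8.77 ± 0.06 in WT livers (SD, n = 3 each). Dstn encodes destrin, also called actin-depolymerizing factor, which frees monomers from filaments more readily than cofilin does. It read 10.60, 9.93 and 10.13 in KO livers, against 9.98, 10.17 and 10.08 in WT livers. KO 427 was the highest of all arrays and KO 429 the lowest, so the spread among KO arrays (0.672) was wider than that among WT arrays (0.198). The mean was 10.22 ± 0.34 in KO livers and 10.08 ± 0.10 in WT livers (SD, n = 3 each), a difference of 0.14 (SE 0.153) that turned to -0.046 without KO 427 and was 0.29 without KO 429.

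KO 427, the array with the highest Dstn value, also had the highest skeletal muscle markers. The muscle creatine kinase gene Ckm read 7.29 there and 6.49 to 6.74 elsewhere, the myosin light chain gene Mylpf 7.14 against 6.30 to 6.46, and the troponin gene Tnnt3 6.64 against 5.86 to 6.0. The adipose and muscle list, with 6 of its 8 markers measured, had a mean level of 6.59 to 7.17 over KO arrays and 6.44 to 6.55 over WT arrays. That list mixes 2 tissues: KO 431 was highest for its fat genes Fabp4 (8.99) and Adipoq (6.92), but not for Ckm, Mylpf or Tnnt3. The part of these markers in the Dstn values was not tested. KO 427 was also the highest array for Cap1, whose difference was 0.645 without it.

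Wdr1, whose product caps and helps to take apart filaments decorated with cofilin, varied little. It read 8.32, 8.28 and 8.30 in KO livers, against 8.28, 8.41 and 8.28 in WT livers. WT 428 lay above the other arrays, and the remaining ones lay within 0.033 of each other. The mean was 8.30 ± 0.02 in KO livers and 8.32 ± 0.07 in WT livers (SD, n = 3 each), a difference of -0.03 (SE 0.0693) that was 0.016 without WT 428.

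The profilins bring monomers to growing filament ends. Pfn1, the form found in nearly all cells, read 10.48, 10.65 and 10.68 in KO livers, against 10.45, 10.64 and 10.57 in WT livers. The groups overlapped over nearly their whole ranges, at 10.60 ± 0.11 in KO livers and 10.55 ± 0.09 in WT livers (SD, n = 3 each), with a difference of 0.05 (SE 0.0841). Pfn2, known mainly from the nervous system, read 7.01, 6.81 and 6.95 in KO livers, against 6.81, 7.01 and 7.03 in WT livers. It differed by -0.03 (SE 0.0877), with 6.92 ± 0.10 in KO livers and 6.95 ± 0.12 in WT livers (SD, n = 3 each), and its sign turned when KO 429, WT 428 or WT 430 was left out, reaching 0.029 without KO 429.

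Actb, the cytoplasmic beta-actin that these proteins act on, read 13.10, 13.11 and 13.12 in KO livers, against 13.08, 13.18 and 13.25 in WT livers. The KO arrays lay within 0.025 of each other and inside the wider range of the WT arrays. The mean was 13.11 ± 0.01 in KO livers and 13.17 ± 0.08 in WT livers (SD, n = 3 each), a difference of -0.06 (SE 0.0712). Cytoplasmic actin genes encode nearly identical proteins, and the part of other actin transcripts in the Actb signal was not tested. The manufacturer's control probe sets read 3 parts of the same transcript separately. The 3′ part read 13.50, 13.60 and 13.54 in KO livers, against 13.50, 13.66 and 13.57 in WT livers, and the difference of the means was -0.029. The middle part differed by -0.073. The 5′ part read 12.56, 12.71 and 12.80 in KO livers, against 12.57, 12.92 and 12.88 in WT livers, a difference of -0.096. The differences of all 4 beta-actin probe sets lay below 0, the groups overlapped in each, and KO 427 and WT 426 were the lowest arrays of each of the 3 control sets.

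The same control sets give a reading of RNA quality, because labelling starts at the 3′ end, so that broken RNA reads lower towards the 5′ end. The 3′ value minus the 5′ value of beta-actin was 0.94, 0.88 and 0.74 in KO livers, against 0.93, 0.74 and 0.69 in WT livers. KO 427 and WT 426 were highest on this measure. For Gapdh the same quantity ran from -0.02 to 0.09 in KO livers and from 0.03 to 0.13 in WT livers. The groups overlapped on both measures, and the part of RNA quality in the values of Cap1 and the other members was not tested.

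**Figure D2:**
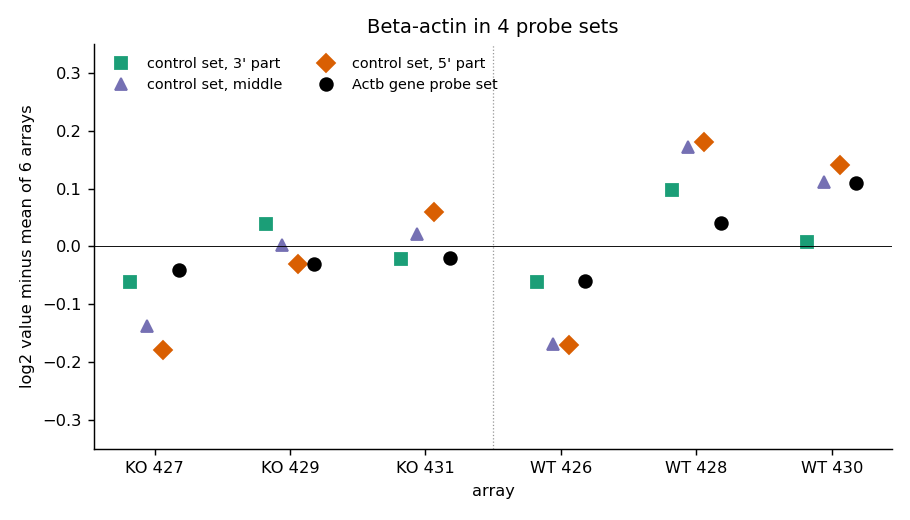
Beta-actin on each array (horizontal axis, KO arrays left of WT arrays) by 4 probe sets: the Actb gene probe set and control sets for the 3′, middle and 5′ parts of the transcript, each as its log2 value minus its own mean over the 6 arrays. KO 427 and WT 426 are the lowest arrays of each control set. In the Actb gene probe set the KO arrays lie within 0.025 of each other, so KO 427 does not stand apart there. The KO and WT arrays overlap in every set.

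Over the 8 measured members, 4 had a positive and 4 a negative difference; their median was 0.013, beside a median of 0.00586 over all 16331 gene probe sets. None of the 8 had a limma adjusted p under 0.05, where 0.0245% of all gene probe sets did, and 1 of the 8, Cap1, had an unadjusted p under 0.05, where 4.99% of all did. The KO and WT values did not overlap for 1 of the 8, again Cap1, against 9.57% of all gene probe sets. Since Cap1 was chosen in this comparison, nothing is read from these counts. The 7 other members differed by -0.06 to 0.14. After centring each of those 7 genes on its mean over the 6 arrays, their average was 0.05 in KO 427, -0.048 in KO 429 and 0.019 in KO 431, against -0.062 in WT 426, 0.046 in WT 428 and -0.004 in WT 430. No array was high or low in all of the 7 genes, except that all 7 were above their mean in WT 428, by 0.002 to 0.095.

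**Figure D3:**
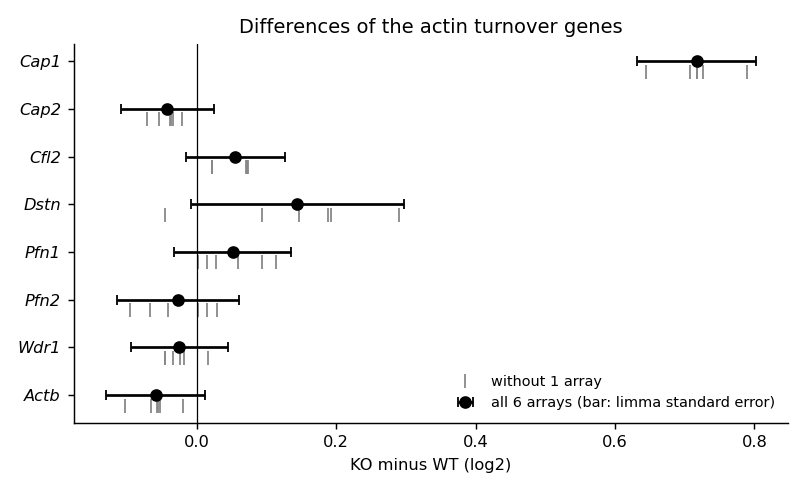
Difference of each measured actin turnover gene, KO minus WT on the log2 scale (horizontal axis), with its limma standard error as a bar; grey ticks give the difference with 1 array left out. Cap1 stays between 0.645 and 0.79, and Dstn, Pfn2 and Wdr1 cross 0.

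Likeness to Cap1 was measured as the root mean square difference over the 6 arrays between values centred on each gene's mean. Genes named only by a predicted-model, clone or sequence number were left out, which left 14984 named genes besides Cap1. The 5 closest of these were Pik3r4, a subunit of the lipid kinase complex of autophagy and endosomes (0.102), Acpp, an acid phosphatase (0.111), Dnajb4, a co-chaperone (0.117), Ppm1m, a protein phosphatase (0.159), and Slc39a4, a zinc importer (0.161). By this measure a gene close to Cap1 also separates the groups. Pik3r4 read 7.72, 7.63 and 7.60 in KO livers, against 6.93, 7.10 and 7.09 in WT livers, and Dnajb4 read 9.28, 9.18 and 9.11 in KO livers, against 8.61, 8.75 and 8.52 in WT livers. The differences of the 5 ran from 0.40 to 0.61, and none had a limma adjusted p under 0.05 (0.0736 for Pik3r4 to 0.670 for Slc39a4). No member was among them. Dstn was the closest member at 0.314, with 7.93% of the 14984 genes closer to Cap1, and Actb the farthest at 0.402, with 68.8% closer. Dstn was highest in KO 427 (10.60) but lowest in KO 429 (9.93). A gene that does not vary also gets a value on this measure, set by the spread of Cap1 alone. The ranks of the members are therefore not read as likeness to Cap1.

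**Figure D4:**
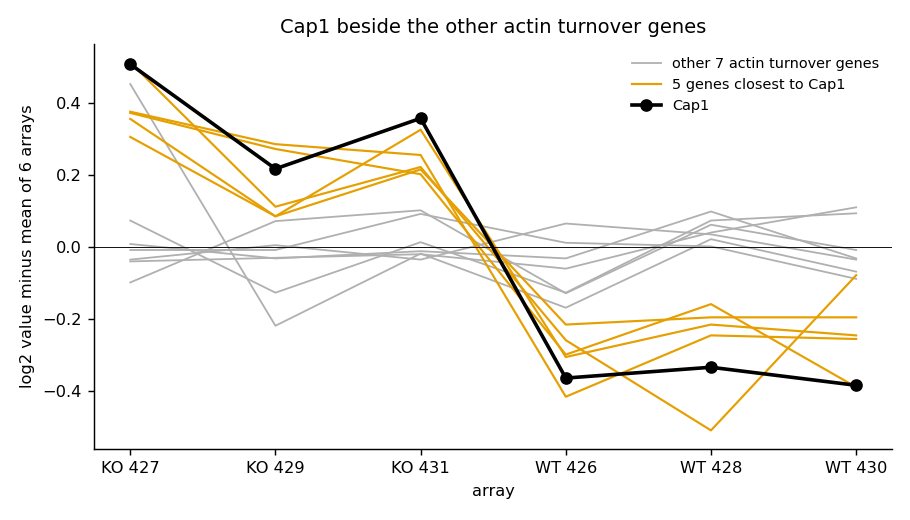
Log2 value minus the mean over the 6 arrays (vertical axis) for Cap1, the 7 other actin turnover genes and the 5 genes closest to Cap1, by array (horizontal axis, KO arrays left of WT arrays). Cap1 and the 5 genes are above 0 in KO and below 0 in WT arrays, while the other 7 members average -0.062 to 0.05 by array, with Dstn spread the most widely among them.

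Cap1 lies on the same chromosome as Ugcg in the reference gene order, with 293 genes that have a named probe set between them. Of the 20 such genes nearest to Cap1, 10 on each side, 8 had a positive and 12 a negative difference, the median being -0.014, and none was past the adjusted threshold in limma (2 had an unadjusted p under 0.05, or 10% of the 20, where 4.99% of all gene probe sets did). These 2 were the genes directly beside Cap1, named here after their values were seen. Ppt1, which encodes a lysosomal enzyme that removes palmitate from proteins, read 8.50, 8.46 and 8.52 in KO livers, against 8.14, 8.43 and 8.04 in WT livers, a difference of 0.289 (SE 0.102, limma adjusted p = 0.951). Mfsd2a, which encodes a transporter of lysophospholipids, read 8.17, 8.04 and 8.45 in KO livers, against 7.74, 7.51 and 8.01 in WT livers, a difference of 0.463 (SE 0.141, limma adjusted p = 0.951). Every KO array lay above every WT array for both genes, as for 9.57% of all gene probe sets, by 0.029 at the closest in each.

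The other genes of the actin system were taken as 9 lists with 126 genes, of which 106 had a named probe set. None of the 106 rose or fell at a limma adjusted p under 0.05. With no adjustment, 3 were higher and 3 lower at p under 0.05, or 5.66%, against 4.99% of all gene probe sets, and the groups did not overlap for 7, or 6.60%, against 9.57% of all. In all, 49 had a positive and 57 a negative difference, and the median was -0.007.

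The other actin isoforms had a positive difference in 4 of 4 genes, with a median of 0.331, and the 2 largest differences each turned negative without 1 array. Acta1, the actin of skeletal muscle, read 8.48, 6.28 and 6.40 in KO livers, against 6.37, 6.60 and 6.63 in WT livers. Its difference of 0.52 (SE 0.488, limma adjusted p = 0.984) was -0.197 without KO 427, the array with high Ckm, Mylpf and Tnnt3. Acta2, the actin of smooth muscle and activated stellate cells, read 7.56, 9.05 and 7.38 in KO livers, against 7.43, 7.78 and 7.68 in WT livers. Its difference of 0.37 (SE 0.369, limma adjusted p = 0.984) was -0.159 without KO 429. The smooth muscle genes Myh11 and Cnn1 were also highest in KO 429, at 7.18 (6.21 to 6.53 elsewhere) and 6.72 (5.84 to 6.12 elsewhere). Of the other markers on that list, Tagln (8.23) and Col3a1 (9.08) were highest there as well. Pdgfrb was lowest there (6.67), and Des, Lrat and Col1a1 lay within the range of the other arrays. The 8 markers of stellate cells and smooth muscle other than Acta2 averaged 0.26 above their own means there, and -0.10 to 0.10 on the other arrays. Their part in the Acta2 value was not tested. Actc1, the cardiac actin, differed by 0.29 (limma adjusted p = 0.982) and by 0.087 without KO 427, where it read 6.80.

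Monomer-binding and disassembly factors other than the members had 6 higher and 5 lower of 11 measured genes. Twf1, which encodes twinfilin, a monomer-binding and filament-end protein with cofilin-like folds, read 8.21, 8.41 and 8.46 in KO livers, against 8.14, 8.20 and 8.06 in WT livers. The groups did not overlap, but the closest KO and WT values differed by 0.016. Its difference of 0.23 (SE 0.0858, limma adjusted p = 0.952) did not pass, nor did 0.09 for its paralogue Twf2 (0.983) or -0.09 for the coactosin gene Cotl1 (0.983). Capping and severing proteins had 5 higher and 8 lower of 13. Gsn, the calcium-activated severing protein gelsolin, read 7.84, 8.04 and 7.93 in KO livers, against 7.41, 7.79 and 7.76 in WT livers, a difference of 0.29 (SE 0.111, limma adjusted p = 0.955) that was 0.164 without WT 426. Scin, a gelsolin relative (0.24), and Vil1, the villin of microvilli (-0.18), both had an adjusted p of 0.982.

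The kinases and phosphatases that switch cofilin off and on had 3 higher and 7 lower of 10, with a median of -0.045, and the largest differences were 0.12 for the kinase gene Pak2 and -0.11 for Pak4. Limk2, a kinase that phosphorylates cofilin directly, differed by -0.08. The adjusted p was 0.982 to 0.984 for these 3 genes. The ARP2/3 complex, which starts branches on existing filaments, had 2 higher and 3 lower of 5 measured subunits, with 0.13 for Arpc1a, 0.10 for Arpc2 and -0.09 for Actr3. Nucleators and their activators had 8 higher and 11 lower of 19. Fmnl1, a formin of blood cells, read 6.01, 5.93 and 6.15 in KO livers, against 6.35, 6.28 and 6.18 in WT livers. Its difference was -0.24 (SE 0.0843, limma adjusted p = 0.951). Like Cap2, Fmnl1 lay at or below the 40th percentile of mean level. Of the genes named from the lists, so did Actc1, Twf2, Scin, Vil1, Adcy3 and Adcy5. Cobl, a nucleator of epithelial and nerve cells, differed by 0.21, and Wasf2, a subunit of the WAVE complex that activates ARP2/3, by 0.18 (limma adjusted p = 0.982 each).

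Filament-binding, cross-linking and motor proteins had 13 higher and 10 lower of 23. Lcp1, the plastin of white blood cells, read 10.08, 10.02 and 10.20 in KO livers, against 10.33, 10.46 and 10.28 in WT livers, a difference of -0.26 (SE 0.0807, limma adjusted p = 0.951). Fmnl1 and Lcp1 are genes of white blood cells, and all 8 markers of Kupffer cells and macrophages had a negative difference as well, with a median of -0.114 and none past the threshold. The mean level of those markers was 8.03 to 8.61 over KO arrays and 8.35 to 8.56 over WT arrays. It was highest in KO 429, the array with the lowest Fmnl1 and Lcp1. It was lowest in KO 431, the KO array with the highest Fmnl1 and Lcp1. Centred on their own means, the markers averaged -0.34 in KO 431, -0.06 in KO 427 and 0.24 in KO 429. They averaged 0.19 in WT 426, -0.01 in WT 428 and -0.02 in WT 430, so the negative differences rested largely on KO 431. Of the 6 leukocyte markers 4 were measured, with 2 higher and 2 lower. The part of these cells in the Fmnl1 and Lcp1 values was not tested. The bundling gene Fscn1 differed by -0.13 and the non-muscle myosin gene Myh10 by 0.17 (limma adjusted p = 0.982 each).

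The largest difference in the 9 lists belonged to Egr1, an immediate early transcription factor that SRF induces. Egr1 read 8.99, 7.70 and 7.70 in KO livers, against 10.19, 9.28 and 9.06 in WT livers. The groups did not overlap, with KO 427 at 8.99 just below WT 430 at 9.06. The mean was 8.13 ± 0.75 in KO livers and 9.51 ± 0.60 in WT livers (SD, n = 3 each), a difference of -1.38 (SE 0.377, limma adjusted p = 0.888). The difference did not pass and ran from -1.81 without KO 427 to -1.04 without WT 426. It was -2.04 without both KO 427 and WT 430 (limma adjusted p = 0.0511). The SRF coactivator genes Mrtfa (-0.11) and Mrtfb (-0.11) had adjusted p-values of 0.986 and 0.984. Over the list of SRF, its coactivators and known targets, 4 were higher and 7 lower of 11.

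Adenylyl cyclases were included because cyclase-associated protein was named in Saccharomyces cerevisiae, where it binds that enzyme. Of 10 measured, 4 were higher and 6 lower, with a median of -0.02. Adcy9 read 8.25, 8.40 and 8.65 in KO livers, against 8.68, 9.02 and 8.53 in WT livers, a difference of -0.31 (SE 0.139, limma adjusted p = 0.982) in which the groups overlapped. Adcy3 differed by -0.17 and Adcy5 by -0.16 (limma adjusted p = 0.982 each).

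**Figure D5:**
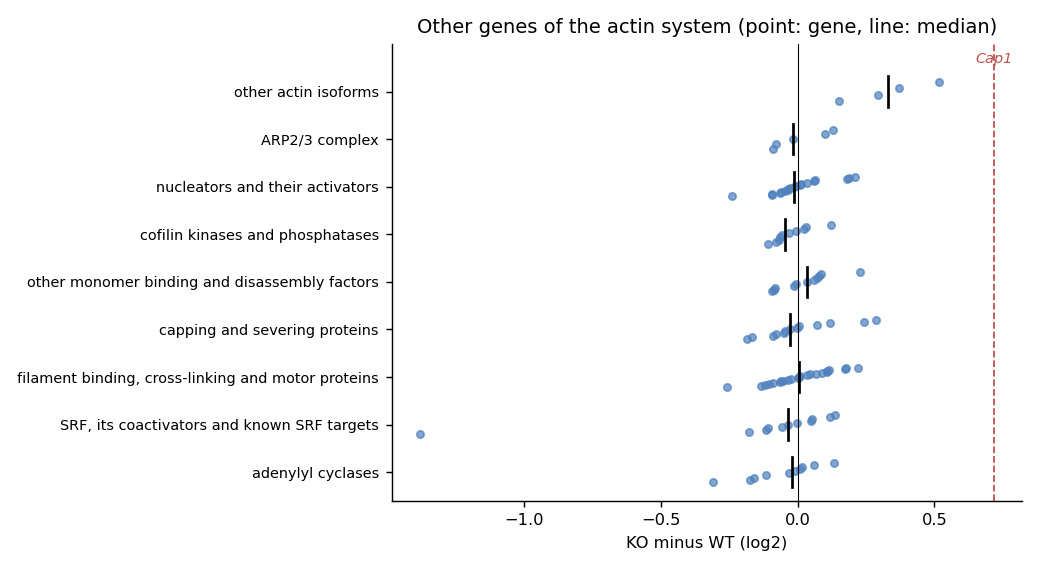
Difference of each measured gene of the 9 lists of the actin system, KO minus WT on the log2 scale (horizontal axis), by list; points are genes, black lines are list medians, and the dashed red line is Cap1 at 0.72. Egr1 at -1.38 and Acta1 at 0.52 are the lowest and the highest point.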

How the data were processed

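Liver RNA was labelled with biotin as cRNA by the Affymetrix protocol, per the labels. The deposited table holds the authors' log2 expression values, a scale read from the values themselves (5.38 to 14.69); for the array type, normalization and summarisation, the sources used here give nothing. Values were used as deposited, without detection calls, and precision is limited by the number of arrays. Of 16395 probe sets, 64 controls were left out of all tests; 15644 had 1 gene symbol, several symbols occurred for none, and 687 stayed unnamed. Of the named ones, 15617 matched the GRCm38.p6 gene table.

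KO was compared with WT in limma 3.58.1 (R 4.3.3) by lmFit and eBayes in a two-sided test, with 4 residual degrees of freedom and 4.85 from the prior; p-values were adjusted by Benjamini-Hochberg over 16331 gene probe sets, and the threshold was 0.05. The members and lists were chosen with earlier results of these data known, and 1 planned list is not reported here. Genes named were all members, up to 3 genes per list with the smallest p, the 5 genes closest to Cap1 and markers with 1 array over 1 log2 unit from the others; further markers and the neighbours of Cap1 were named after their values were seen. On simulated data of 16331 probe sets and 3 against 3 arrays, with 200 changed by 1, the limma step recovered 93.6% with 4.33% of calls false; these rates depend on the number changed and say little of a comparison with 4 calls. The alternatives tried comprised quantile normalization, centring on medians, leaving out the dimmest 40% of probe sets, a trended robust variance, array weights, adjustment over named probe sets, and leaving out arrays. Figures were drawn with matplotlib 3.10.9.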

Additional observations from a re-analysis of the deposited data

How the results depend on the processing

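The difference of Cap1 kept its sign in every alternative that refits it. Since every KO array lay above every WT array, leaving out or weighting arrays could not turn that sign, so nothing is read from it. The adjusted p of Cap1, the value that chose it, ran from 0.0382 to 0.273 over 13 alternatives. It was under 0.05 with a trended robust variance (0.0382) and with array weights (0.0426). Leaving out 1 array gave 0.645 to 0.79 for Cap1, -0.071 to -0.022 for Cap2, 0.022 to 0.073 for Cfl2, -0.046 to 0.29 for Dstn, 0.002 to 0.114 for Pfn1, -0.096 to 0.029 for Pfn2, -0.046 to 0.016 for Wdr1 and -0.103 to -0.02 for Actb. The count of all probe sets past the threshold was 4, with 8 under array weights, 8 without both KO 427 and WT 430, and 0 to 4 when 1 array was left out, with 4 without WT 430 and 0 without any other array; the cause was not tested. The count of other actin genes stayed at 0 in all 13 alternatives. Of the actin genes named from the lists, 3 had a difference whose sign turned in at least 1 alternative. No paired analysis was possible because the groups share no replicate number.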
